A study of Homo sapiens with 6 samples.

Results

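The genes described here act at the G1/S transition and at the start of DNA replication. They are the transcription factor E2F1, the cyclins E (CCNE1 and CCNE2), the origin licensing factors CDT1 and CDC6, the helicase activators CDC45, GINS1, GINS2 and GINS3, and the sliding clamp PCNA. They were chosen by name, with earlier results of these data known. Their counts and medians beside those of all genes are therefore descriptions and not independent evidence. Each of the 10 was measured by 1 named probe set, among 14884 named genes in all. Expression was measured in SH-SY5Y, an established human neuroblastoma line, on Affymetrix Human Gene 2.0 ST arrays. Cells were exposed for 24 h to the solvent methanol (mock), to securinine at 30 µM or to 16F16 at 4 µM. Per the labels, securinine and 16F16 each inhibit protein disulfide isomerase, which forms disulfide bonds in the endoplasmic reticulum. Each of the 3 groups had 2 arrays of the same line, labelled biological replicates. How the cultures were separated is not given in the sources used here, so p-values measure the spread between these samples, which may be technical.

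In proliferating cells E2F1 drives transcription of genes needed for S phase once cyclin-dependent kinases inactivate the retinoblastoma protein. Cyclin E with its kinase partner CDK2 adds to that inactivation, and the cyclin E genes are themselves E2F targets. CDC6 and CDT1 load the MCM helicase onto origins in G1, and CDC45 and the GINS complex join it in S phase to form the active helicase. PCNA then holds the polymerases on DNA. In neuroblastoma, a tumour of sympathetic precursors, replication genes are highly expressed in dividing cells.

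Values are RMA log2 expression, so 1 unit is a doubling, and levels of different genes were not ranked against each other. Differences between genes within an array were compared only across arrays. The medians of the 6 arrays over 53617 probe sets ran from 4.16 to 4.23, and the correlation across probe sets was 0.986 to 0.990 within a group and 0.979 to 0.986 between groups. Of 12 noradrenergic neuroblastoma markers 10 were measured, which here means that the gene had a named probe set. All 10 had means above the median of all probe sets, of which 37519 of 53617 were unnamed here. The marker TH had a mean of 5.32, below 5.65, the median of the means of all named genes. HAND2, a transcription factor of that lineage, lay between 11.17 and 11.30 on the arrays. With securinine 5 of the 10 fell, namely CHGA (-2.22), DDC (-2.05), GATA2 (-1.01), CHGB (-0.64) and DBH (-0.59) (limma adjusted p from 0.0011 to 0.012). With 16F16 CHGA (-1.24), DDC (-1.06) and CHGB (-0.81) fell (limma adjusted p from 0.024 to 0.034). Of all genes 10.6% were lower with securinine and 0.779% with 16F16. The mean log2 level per marker was 9.73 and 9.74 on the mock arrays, 8.96 and 9.06 with securinine, and 9.34 and 9.31 with 16F16, and the part of these markers in the results was not tested. Of 13 markers of epithelial, blood, endothelial and other cells 9 were measured, with a mean log2 level per marker of 4.70 to 4.72 on the mock arrays, 4.87 to 4.88 with securinine and 4.67 to 4.95 with 16F16. Of these 9 markers, 6 also had means above the median of all probe sets, among them KRT18 at the 80.6 percentile. Below the lower quartile lay 1, the endothelial marker PECAM1, with a mean of 2.75, at the 23.5 percentile of the probe sets. None of these log2 levels is 0. The lysosomal glycoprotein CD68, which macrophages and other cells express, rose by 2.18 with securinine (limma adjusted p = 0.0040). The monocyte marker CD14 rose by 0.57 (limma adjusted p = 0.038), from a mock mean of 4.12 that was not shown above background. Their part in the results was not tested. The array signal comes from whole cultures, in which fewer cells in S phase and less RNA per cell cannot be told apart. The proliferation marker MKI67 lay at -0.0088 with securinine (limma adjusted p = 0.96) and at 0.23 with 16F16 (limma adjusted p = 0.18), and the topoisomerase TOP2A fell by 0.41 with securinine (limma adjusted p = 0.034). Their part in the results was not tested either.

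Promoter sequences were taken from RefSeq (GRCh38.p14) as the 250 bases upstream of the first listed start, and 9 of the 10 genes were matched. E2F proteins bind TTTNNCGC-like elements, and this 8-letter pattern was searched on both strands. It occurred upstream of 4 of the 9 genes (44.4%), namely E2F1, CDT1, PCNA and GINS2, against 7.72% of the 10749 matched genes on the array. A second form, TTTNNCGG, was added after the promoters were seen. With it the count was 6 of 9 (66.7%), against 14.0% of the genes on the array, and CDC6 and CDC45 joined the list. The CCAAT box, bound by NF-Y and searched as CCAAT on both strands, occurred in 6 of 9 (66.7%), against 34.3%. The CHR element of mitotic genes, TTTGAA on both strands, occurred in 0 of 9, against 10.4%. A letter match is a description of the window and shows no binding. The 4 sequences below are shown because these genes differ in both E2F-type matches and response: E2F1 itself, CDT1, which changed with both compounds, CDC6, which was level with securinine, and CCNE1, which fell with securinine and has neither form here. Capitals mark both forms, on either strand, and in E2F1 some matches overlap each other.
E2F1, chr20:33686386-33686635, minus strand: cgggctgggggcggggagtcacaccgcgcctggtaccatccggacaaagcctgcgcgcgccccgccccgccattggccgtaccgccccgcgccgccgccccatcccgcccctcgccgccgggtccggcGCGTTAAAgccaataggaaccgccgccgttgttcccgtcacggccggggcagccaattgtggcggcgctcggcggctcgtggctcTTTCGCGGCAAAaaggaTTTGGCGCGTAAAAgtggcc
CDT1, chr16:88803539-88803788, plus strand: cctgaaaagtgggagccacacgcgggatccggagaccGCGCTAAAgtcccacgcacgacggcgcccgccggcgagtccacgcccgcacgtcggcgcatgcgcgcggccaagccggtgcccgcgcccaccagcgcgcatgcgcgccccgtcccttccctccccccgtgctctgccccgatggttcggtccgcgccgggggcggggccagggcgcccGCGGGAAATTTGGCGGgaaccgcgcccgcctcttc
CDC6, chr17:40287629-40287878, plus strand: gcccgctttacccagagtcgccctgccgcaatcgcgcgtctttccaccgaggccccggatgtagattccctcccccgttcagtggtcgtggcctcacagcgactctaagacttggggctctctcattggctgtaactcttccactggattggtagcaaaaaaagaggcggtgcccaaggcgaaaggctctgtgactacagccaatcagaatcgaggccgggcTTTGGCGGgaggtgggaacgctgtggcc
CCNE1, chr19:29811741-29811990, plus strand: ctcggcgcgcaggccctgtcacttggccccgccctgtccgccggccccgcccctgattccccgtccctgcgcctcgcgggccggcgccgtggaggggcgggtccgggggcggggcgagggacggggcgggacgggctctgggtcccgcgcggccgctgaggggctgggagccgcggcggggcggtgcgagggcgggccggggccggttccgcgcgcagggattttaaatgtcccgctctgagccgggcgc
In E2F1 there were 4 matches to the first form, at 122, 33, 20 and 14 bases upstream of the start, and 1 to the second form at 37 bases. In CDT1 a TTTCCCGC on the opposite strand at 35 bases was followed directly by TTTGGCGG at 27 bases. CDC6 carried TTTGGCGG at 28 bases and CDC45 at 25 bases, so that these 3 genes share the same 8 letters at similar distances. The windows upstream of the other listed starts of CDC45 and PCNA held neither E2F-type form.

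The genes that passed the test of securinine against mock were lower, and those that passed for 16F16 against mock were higher. Only CCNE2 and CDT1 passed in both comparisons. With securinine 5 genes fell (CCNE1, CCNE2, CDT1, GINS2 and GINS3) and 0 rose, at a limma adjusted p under 0.05 over all 14884 genes. The background in that comparison was 10.6% of all genes lower and 8.40% higher. With 16F16, CCNE2 and CDT1 rose and 0 of the 10 fell, where 0.719% of all genes were higher and 0.779% lower. The median log2 difference of the 10 genes was -0.41 with securinine and 0.25 with 16F16, beside -0.035 and -0.012 over all genes. In the comparison of 16F16 with securinine, which does not use the mock arrays as reference, 5 genes were higher and 0 lower, beside 5.55% and 3.96% of all genes. There the estimates were above 0 for 10 of 10 genes and ran from 0.22 to 1.23, with a median of 0.39 beside 0.013 over all genes. The doses differed, so this is a comparison of the treatments as given. Both comparisons against mock use the same mock arrays.

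**Figure D1:**
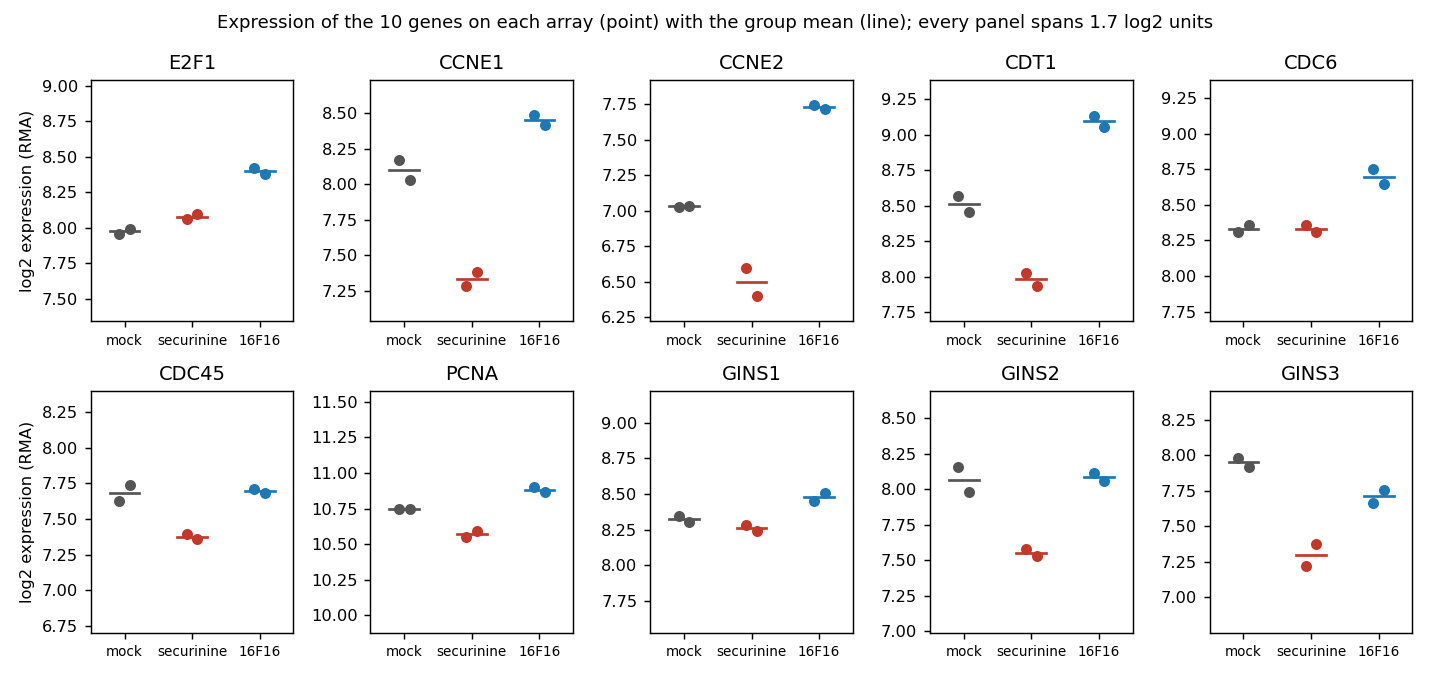
Log2 expression (vertical axis, RMA values) of each gene on the 6 arrays by treatment (horizontal axis); points are arrays, lines are means of 2 arrays, and every panel spans the same number of log2 units. For CCNE1, CCNE2, CDT1, PCNA and GINS1 both securinine arrays lie below and both 16F16 arrays above the mock arrays, and GINS3 is below mock with both compounds.

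In 5 of the 10 genes (CCNE1, CCNE2, CDT1, PCNA and GINS1) both securinine arrays lay below both mock arrays and both 16F16 arrays above them. That full separation was found in 525 of 14884 genes (3.53%). For PCNA and GINS1 neither comparison with mock passed the test. Arrays of 2 groups often separate in so small a design: 60.9% of all genes did so for securinine against mock, 51.7% for 16F16 against mock and 55.8% for 16F16 against securinine. Separation was seen in 9, 8 and 10 of the 10 genes.

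E2F1, the activator at the head of this group, was the gene whose estimate with securinine lay above 0. Its log2 values were 7.96 and 7.99 on the mock arrays, 8.06 and 8.09 with securinine, and 8.42 and 8.38 with 16F16. The groups did not overlap, with mock lowest, securinine slightly above it and 16F16 highest. E2F1 lay at 0.10 ± 0.076 with securinine (log2 difference ± SE of the fit, n = 2 arrays per group, limma adjusted p = 0.42), with a 95% interval from -0.086 to 0.29. With 16F16 it lay at 0.43 ± 0.076 and missed the threshold (limma adjusted p = 0.062), and its interval, 0.24 to 0.61, is not adjusted for the number of genes. The difference of 16F16 from securinine, 0.32 ± 0.076, missed it as well (limma adjusted p = 0.055). In the order of levels, neither mock and securinine nor securinine and 16F16 were told apart by the test.

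CCNE2, CCNE1 and CDT1 had the 3 largest differences between the compounds among the 10 genes, but their order was not stable. That of CCNE1 and CDT1 turned after quantile normalization and without securinine replicate 1. Without securinine replicate 2 the estimate of CCNE1 (1.17) lay above that of CCNE2 (1.13). CCNE1 read 8.17 and 8.03 on the mock arrays, 7.28 and 7.38 with securinine, and 8.48 and 8.42 with 16F16. The securinine arrays were the low ones, 0.65 below the nearer mock array at the closest, and the 16F16 arrays sat above mock by a smaller step. With securinine CCNE1 fell by 0.77 ± 0.092, a fold of 0.587 (limma adjusted p = 0.0065). With 16F16 it lay at 0.35 ± 0.092 without passing (limma adjusted p = 0.12), so the levels with mock and 16F16 were not told apart by the test. Between the compounds CCNE1 was higher with 16F16 by 1.12 ± 0.092, which is 2.17-fold (limma adjusted p = 0.0088).

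CCNE2, the second cyclin E gene, moved in both comparisons with mock. Its values were 7.02 and 7.03 on the mock arrays, 6.60 and 6.40 with securinine, and 7.74 and 7.71 with 16F16. All 3 groups were apart, and the spread was widest in the securinine pair, whose arrays differed by 0.20. CCNE2 fell by 0.53 ± 0.094 with securinine, a fold of 0.692 (limma adjusted p = 0.017). It rose by 0.70 ± 0.094 with 16F16, or 1.62-fold (limma adjusted p = 0.040). The difference between the compounds was 1.23 ± 0.094, a 2.34-fold higher level with 16F16 (limma adjusted p = 0.0088), and 39th in size among the 14884 differences in that direction. Within each array the CCNE2 value minus the CCNE1 value moved by 0.24 with securinine and 0.35 with 16F16 against mock. The securinine arrays differed from each other by 0.30 in that quantity, so the shift with securinine is within their spread.

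Of the licensing factors, CDT1 passed against mock with both compounds and CDC6 with neither. CDT1, which brings the MCM helicase to origins and is destroyed once S phase begins, read 8.57 and 8.45 on the mock arrays, 8.03 and 7.94 with securinine, and 9.13 and 9.05 with 16F16. The 3 groups were apart on every array, at about equal steps below and above mock. CDT1 fell by 0.53 ± 0.088 with securinine (fold 0.694, limma adjusted p = 0.014) and rose by 0.58 ± 0.088 with 16F16 (49.8% higher, limma adjusted p = 0.049, close to the threshold). Between the compounds it was 2.16-fold higher with 16F16, at 1.11 ± 0.088 (limma adjusted p = 0.0088).

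CDC6, the ATPase that recruits CDT1 and the MCM complex to the origin recognition complex, read 8.31 and 8.36 on the mock arrays, 8.36 and 8.31 with securinine, and 8.75 and 8.65 with 16F16. The mock and securinine arrays overlapped, and the 16F16 arrays were the high ones. The difference with securinine was -0.0010 ± 0.082 (limma adjusted p = 0.996), with a 95% interval from -0.21 to 0.20. With 16F16 CDC6 lay at 0.37 ± 0.082 against mock (limma adjusted p = 0.089) and at 0.37 ± 0.082 against securinine (limma adjusted p = 0.051), both short of the threshold. CDC6 and E2F1 had a similar pattern over the arrays (Pearson r = 0.96 over 6 arrays, a description, since arrays share groups).

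**Figure D2:**
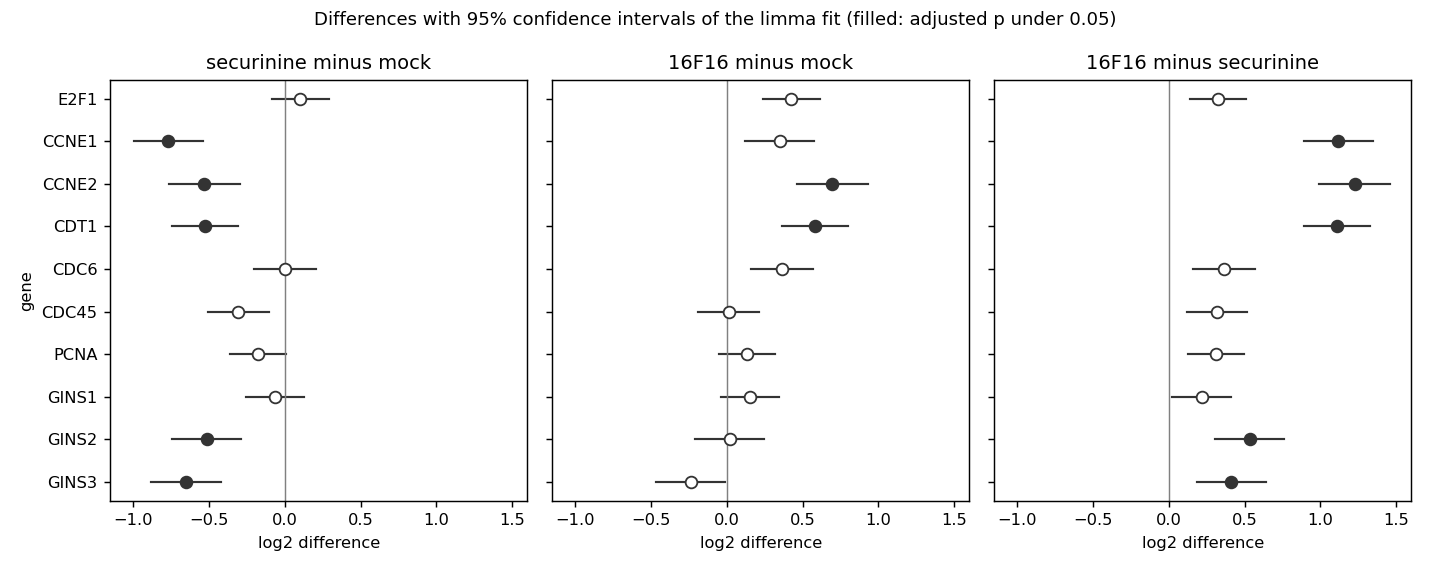
Log2 differences (horizontal axis) of the 10 genes (vertical axis) for securinine minus mock, 16F16 minus mock and 16F16 minus securinine; points are estimates, bars their 95% confidence intervals, and filled points passed at an adjusted p under 0.05. Filled points lie below 0 with securinine (5 genes), above 0 with 16F16 (2 genes) and above 0 between the compounds (5 genes).

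Of the helicase activators GINS2 and GINS3 fell with securinine, and 0 passed with 16F16. GINS2, a subunit of the GINS ring, read 8.15 and 7.98 on the mock arrays, 7.58 and 7.53 with securinine, and 8.12 and 8.06 with 16F16. Both securinine arrays were low, and the mock and 16F16 arrays overlapped. GINS2 fell by 0.51 ± 0.092 with securinine (fold 0.700, limma adjusted p = 0.017), lay at 0.019 ± 0.092 with 16F16 (limma adjusted p = 0.93) with a 95% interval from -0.21 to 0.25, and was higher with 16F16 than with securinine by 0.53 ± 0.092 (limma adjusted p = 0.029).

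GINS3, another subunit of the ring, was the gene whose values were below mock with both compounds. It read 7.98 and 7.92 on the mock arrays, 7.22 and 7.38 with securinine, and 7.67 and 7.76 with 16F16. The groups did not overlap, and the 16F16 arrays lay between the others. GINS3 fell by 0.65 ± 0.092 with securinine (fold 0.636, limma adjusted p = 0.0095). With 16F16 it lay at -0.24 ± 0.092 without passing (limma adjusted p = 0.22). The difference of 16F16 from securinine, 0.41 ± 0.092, passed narrowly (limma adjusted p = 0.0497).

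GINS1, a further subunit, had the smallest difference between the compounds. It read 8.34 and 8.30 on the mock arrays, 8.28 and 8.24 with securinine, and 8.45 and 8.51 with 16F16. The groups were apart by 0.020 below mock and by 0.10 above it. No comparison passed: GINS1 lay at -0.062 ± 0.077 with securinine (limma adjusted p = 0.64), at 0.15 ± 0.077 with 16F16 (limma adjusted p = 0.32) and at 0.22 ± 0.077 between the compounds (limma adjusted p = 0.14). Subunits of the same ring thus had different values with securinine. The GINS1 value minus the GINS2 value within an array was 0.19 and 0.32 on the mock arrays, 0.71 and 0.71 with securinine, and 0.33 and 0.45 with 16F16. The securinine arrays stood above the other 4 in this quantity, whose difference from mock was not tested. GINS4, the remaining subunit and not one of the 10, lay at -0.074 ± 0.14 with securinine and 0.38 ± 0.14 with 16F16 (limma adjusted p = 0.78 and 0.21).

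CDC45, the helicase component that travels with GINS and MCM, read 7.63 and 7.74 on the mock arrays, 7.39 and 7.36 with securinine, and 7.71 and 7.68 with 16F16. Its pattern was that of GINS2, with low securinine arrays and overlapping mock and 16F16 arrays. The difference of -0.31 ± 0.081 with securinine fell just short (limma adjusted p = 0.051), and that with 16F16 was 0.012 ± 0.081 (limma adjusted p = 0.95). With each array centred on its median the securinine difference passed (limma adjusted p = 0.048), as it did after quantile normalization, over brighter genes alone and with an intensity trend (adjusted p from 0.0079 to 0.22 over the 15 alternatives). Between the compounds CDC45 lay at 0.32 ± 0.081 (limma adjusted p = 0.066).

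PCNA, the ring that clamps polymerases to DNA and also a p53-responsive gene, had a bright probe set, at the 99.1 percentile of the named genes, and mock arrays that differed by 0.0023. It read 10.75 and 10.75 on the mock arrays, 10.55 and 10.59 with securinine, and 10.90 and 10.87 with 16F16. The order was securinine, mock and 16F16 with no overlap, but steps were small. PCNA lay at -0.18 ± 0.074 with securinine (limma adjusted p = 0.16), at 0.14 ± 0.074 with 16F16 (limma adjusted p = 0.36) and at 0.31 ± 0.074 between the compounds (limma adjusted p = 0.058).

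These calls rest on few arrays. In the fit of all 6 arrays, 3139 of all 14884 genes had an unadjusted p under 0.05 in limma for 16F16 against mock. Between the compounds 4116 had. Leaving out either mock array brought the 5 falls with securinine to 1, leaving out either securinine array brought them to 2, testing all probe sets brought them to 2, and CCNE1 was called in all 15 alternatives. The 2 rises with 16F16 were lost when any single one of the 6 arrays was left out, in the fit of the 4 arrays alone and with the replicate number as a block (0 called each, with 4 to 6 of the 10 genes at an unadjusted p under 0.05 in limma). Of the 5 genes higher with 16F16 than with securinine, 0 were called without securinine replicate 1, securinine replicate 2 or 16F16 replicate 1, each with 9 of the 10 genes at an unadjusted p under 0.05 in limma, and 3 without mock replicate 1, mock replicate 2 or 16F16 replicate 2 and with the replicate block. For the 3 genes with the largest differences between the compounds, the estimates stayed between 1.07 and 1.17 (CCNE1), 1.13 and 1.33 (CCNE2) and 1.07 and 1.18 (CDT1) in all 15 alternatives.

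Over the 6 arrays, CCNE2 and CDT1 had the highest Pearson r of any pair among the 10 genes (r = 0.99), and E2F1 and GINS3 the lowest (r = -0.075). This r compares the pattern over the arrays and not the level. The points share groups, so these are descriptions of the same group differences and not independent relations. CCNE1 with PCNA (r = 0.99) and CDT1 with PCNA (r = 0.98) also had a high r, although the PCNA differences were small.

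By the rule of highest Pearson r over the 6 arrays, the protein-coding genes most like CCNE1 were CARMIL1, E2F8, OLFM1, DHRS4L2 and MYO1D, with r from 0.993 to 0.998 among 1719 candidates. E2F8, an atypical E2F that represses E2F targets, read 8.09 and 8.03 on the mock arrays, 7.25 and 7.30 with securinine, and 8.53 and 8.43 with 16F16. Its arrays were low with securinine and high with 16F16, as those of CCNE1 were. The genes most like E2F1 were CDADC1, GIT1, LMF2, NEURL4 and VPS28, with r from 0.982 to 0.991 among 5805 candidates. These genes were near the mock level with securinine and highest with 16F16.

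**Figure D3:**
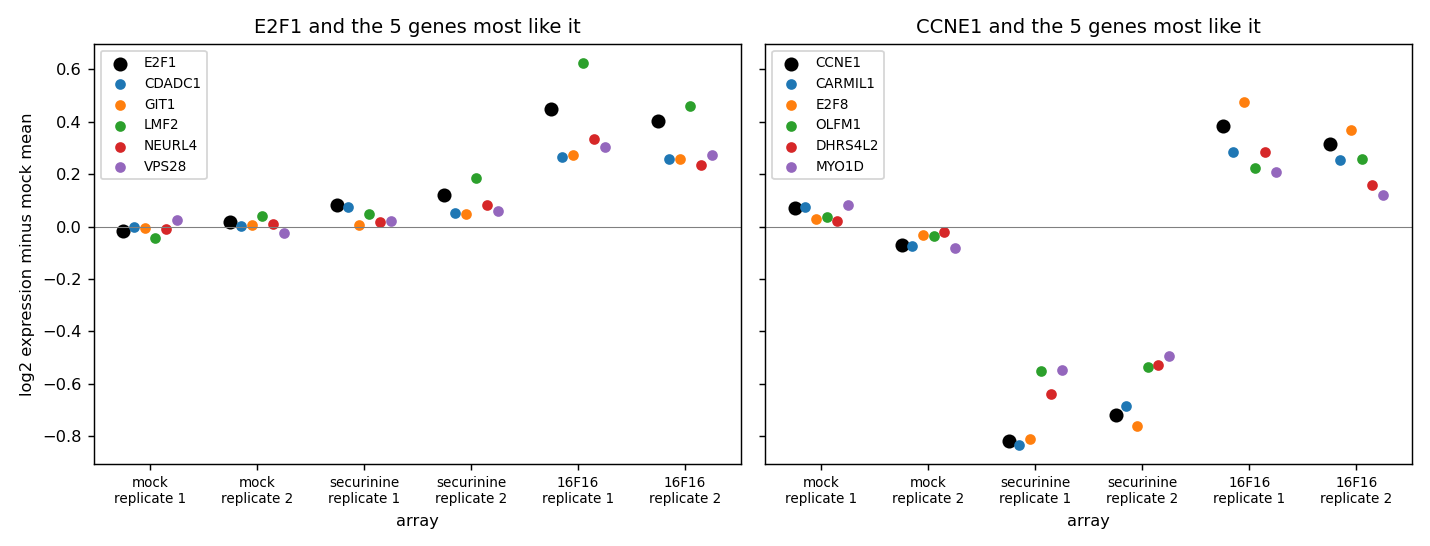
Log2 expression minus the mock mean (vertical axis) on each of the 6 arrays (horizontal axis) for E2F1 (left, black) and CCNE1 (right, black) with the 5 genes of highest correlation (coloured). The E2F1 panel is near 0 for mock and securinine and highest with 16F16, and the CCNE1 panel is below 0 with securinine and above 0 with 16F16.

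The wider pathway was read from 7 lists of 134 genes, of which 73 were measured, that is, had a named probe set. Of the 53617 probe sets 37519 were unnamed here, so the other listed genes may still be on the array. Beside the counts below, 10.6% of all genes were lower and 8.40% higher with securinine. With 16F16 these shares were 0.779% and 0.719%, and between the compounds 3.96% lower and 5.55% higher. In the E2F and RB family 9 of 12 genes were measured, and with securinine E2F8 (-0.79 ± 0.083), and the E2F dimer partners TFDP2 (-0.64 ± 0.080) and TFDP1 (-0.48 ± 0.087) fell, whereas E2F7 rose by 0.82 ± 0.084 (limma adjusted p from 0.0046 to 0.018). E2F7, another atypical repressor and a known p53 target, read 7.58 and 7.52 on the mock arrays, 8.34 and 8.41 with securinine, and 8.37 and 8.27 with 16F16. Its treated arrays were all above the mock arrays and overlapped each other. With 16F16 E2F7 rose by 0.77 ± 0.084 (limma adjusted p = 0.030) and was the 1 gene of this list that passed. The RB relative RBL1 (0.50 ± 0.083, adjusted p = 0.057), E2F2 (0.43 ± 0.12, adjusted p = 0.13) and E2F8 (0.42 ± 0.083, adjusted p = 0.072) did not pass in limma with 16F16. Between the compounds E2F2, E2F8, TFDP1 and TFDP2 were higher with 16F16, by 0.81, 1.21, 0.64 and 0.44 (limma adjusted p from 0.0088 to 0.033). The median of the list was -0.29 with securinine and 0.16 with 16F16.

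Of 24 origin recognition, licensing and firing genes outside the 10, 16 were measured. With securinine 7 fell and 1 rose, beside 10.6% and 8.40% of all genes, and the median was -0.30. The largest falls were in the helicase subunits MCM7 (-0.89 ± 0.077) and MCM3 (-0.70 ± 0.074), and the kinase CDC7, which fires licensed origins, fell by 0.66 ± 0.090. DONSON, a replisome protein that helps deliver GINS, rose by 0.56. With 16F16 0 of the 16 passed in limma, and the median was 0.077. An unadjusted p under 0.05 in limma was found in 9 of the 16, beside 3139 of all 14884 genes. MCM7 lay at -0.47 ± 0.077 (limma adjusted p = 0.056) and the helicase RECQL4 at 0.51 ± 0.095 (limma adjusted p = 0.068), so values in this list went both ways. Between the compounds 8 were higher with 16F16 and 1 lower, which was the CDC7 activator DBF4 (-0.51, limma adjusted p = 0.034).

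Only 5 of 29 replication fork genes had a named probe set. With securinine the checkpoint mediator TIMELESS fell by 0.61 ± 0.088 and the flap nuclease FEN1 by 0.42 ± 0.10 (limma adjusted p = 0.010 and 0.041), and 0 rose. Of all genes 10.6% fell and 8.40% rose. With 16F16 0 of 5 passed in limma (unadjusted p under 0.05 in 1, beside 3139 of all 14884 genes). Claspin (CLSPN) then lay at 0.55 ± 0.10 (limma adjusted p = 0.067). Between the compounds FEN1, CLSPN and TIMELESS were higher with 16F16, by 0.63, 0.53 and 0.61 (limma adjusted p from 0.021 to 0.035).

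Of 19 G1/S cyclins, kinases and inhibitors 10 were measured, and with securinine CCND1, the cyclin D that starts RB phosphorylation, rose by 0.53 ± 0.085, and the CDK-activating phosphatase CDC25A rose by 0.45 ± 0.096 (limma adjusted p = 0.013 and 0.030), with 0 lower. CCNA2, the cyclin of S phase, lay at -0.31 ± 0.088 with securinine without passing (limma adjusted p = 0.064), as did the kinase CDK4 at -0.15 ± 0.087 and the inhibitor CDKN2A at -0.21 ± 0.093. CDKN2A read between 3.75 and 4.09 on the arrays, below their medians over all probe sets, and was not shown above background. With 16F16 0 of 10 passed in limma (unadjusted p under 0.05 in 4, beside 3139 of all 14884 genes). CDC25A was then at 0.49 ± 0.096, slightly above its called value with securinine, so the missing call is not by itself a difference. The medians of this list, 0.042 and -0.032, were near those of all genes, of which 8.40% were higher and 10.6% lower with securinine.

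Of 21 genes of p53 arrest and replication stress 12 were measured. The share of all genes that rose was 8.40% with securinine and 0.719% with 16F16. With securinine 7 rose and 0 fell, with the kinase PLK2 at 2.51 ± 0.14, EDA2R at 1.84 ± 0.092 and the stress sensors SESN2 and SESN1 at 1.52 and 0.996. With 16F16 6 rose and 0 fell, with EDA2R at 1.22 ± 0.092 and PLK2 at 1.15 ± 0.14. PLK2 read 3.66 and 3.98 on the mock arrays, below their medians over all probe sets, so it was not shown above background there and its differences may be understated. The checkpoint genes ATR, ATRIP, CHEK1, CHEK2 and WEE1 did not pass with either compound. The list was written with earlier results of these data known, and part of it was taken from genes known to rise in them, so its direction is not independent evidence. Levels were lower with 16F16 than with securinine in 7 of the 12 genes (limma adjusted p from 0.0096 to 0.032), and their part in the values of the 10 genes was not tested.

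**Figure D4:**
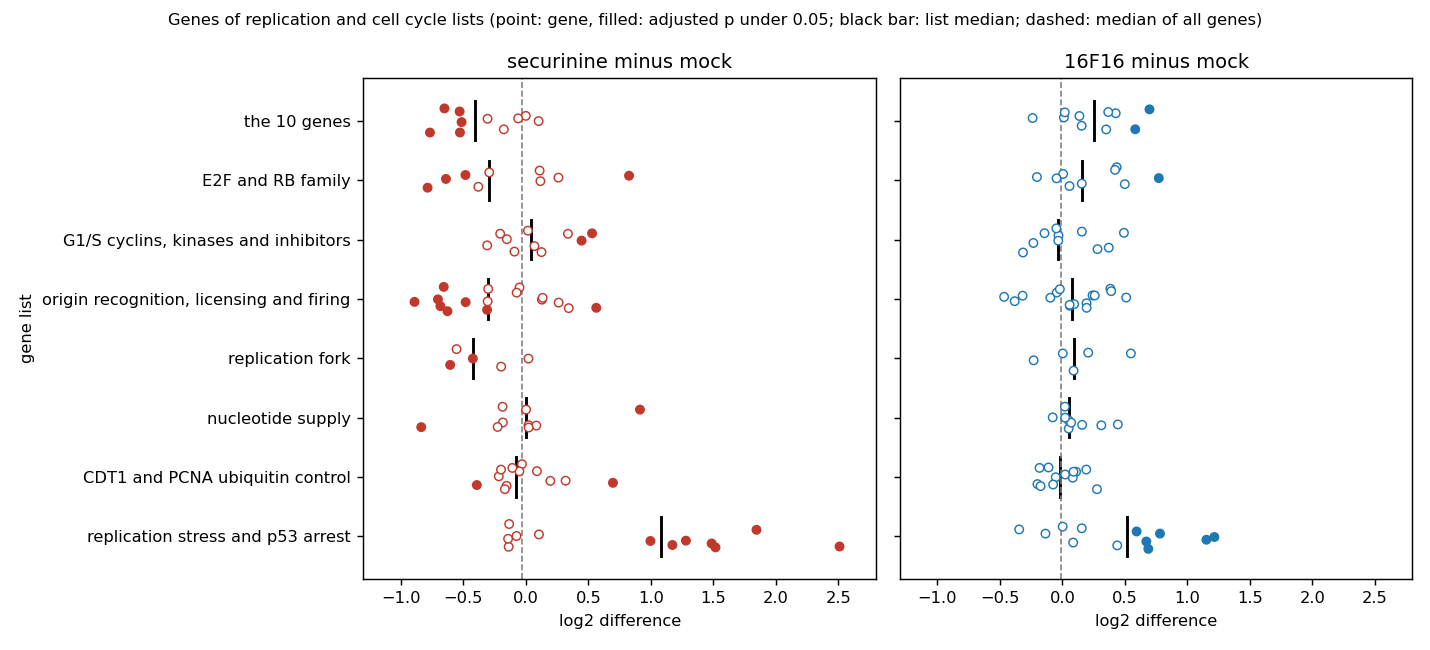
Log2 differences from mock (horizontal axis) of the genes of each list (vertical axis) with securinine (left) and 16F16 (right); points are genes, filled where the adjusted p was under 0.05, black bars are list medians and the dashed line is the median of all genes. The median of the 10 genes lies at -0.41 on the left and 0.25 on the right, and the median of the p53 arrest and replication stress list lies at 1.08 and 0.52.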

How the data were processed

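RNA of 6 SH-SY5Y samples was measured on 1 array each. The authors deposited log2 expression values of 53617 probe sets, made with RMA, which the submitters' processing notes give beside limma, with no version. RMA normalizes arrays to each other, so a shift of most genes together is lost. Scanner files were not analysed here, and the annotation release is not given in the sources used here.

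Probe sets were named through a table of the platform annotation, in which 16098 (30.0%) had 1 symbol, 0 had several and 37519 were unnamed here. All 16098 matched a RefSeq table (GRCh38.p14) by Entrez identifier. The brightest probe set was taken for each of 14884 genes. Each gene was fitted with limma 3.58.1 in R 4.3.3 (lmFit and eBayes on all 6 arrays, group as the only term, 3 residual and 2.68 prior degrees of freedom). Two-sided p-values were adjusted by Benjamini-Hochberg over the 14884 genes, with a call at 0.05. Errors after differences are SEs of the fit, whose median over genes was 0.11. The code of the fit was run on simulated data with independent noise, which does not test whether these arrays are independent. The number of arrays limits the precision.

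The members and lists were chosen with earlier results of these data known. Genes named are the 10 members, up to 6 of each list with the lowest p in a comparison with mock, and the 5 genes most correlated with E2F1 and with CCNE1. Other genes named here (SESN1, MKI67, TOP2A, HAND2, PECAM1, CD14 and CD68 among them) were chosen from the lists and markers after their values were seen. Alternatives changed the variance prior, normalization, centring, filter, features, probe sets, arrays and replicate block.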

Additional observations from a re-analysis of the deposited data

Results flagged for a closer look

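In 5 of the 10 genes the response to 16F16 differed from that to securinine by the test of the difference itself (limma, 16F16 minus securinine, adjusted over 14884 genes). Of all genes 5.55% were higher and 3.96% lower in that test. The limma adjusted p was 0.0088 for CCNE1, CCNE2 and CDT1, 0.029 for GINS2 and 0.0497, close to the threshold, for GINS3. The log2 differences were 1.12 for CCNE1, 1.23 for CCNE2, 1.11 for CDT1, 0.53 for GINS2 and 0.41 for GINS3, each with the 16F16 arrays above the securinine arrays. For CCNE1, CCNE2 and CDT1 the estimates against mock had opposite signs with the compounds, for GINS2 the 16F16 level was near mock, and for GINS3 both estimates were below 0. The doses differed, and compound and dose cannot be told apart.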

How the results depend on the processing

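Of 450 values of the 10 genes under 15 alternatives, 354 kept their direction and side of the threshold, 68 lost a call, 22 gained one and 6 changed sign. A call could be lost only for the 5, 2 and 5 genes called in the 3 comparisons, so all 68 losses fall on these. The 6 that changed sign were near 0 in leave-one-out fits: CDC6 with securinine ran from -0.026 to 0.024, CDC45 with 16F16 from -0.042 to 0.066 and GINS2 with 16F16 from -0.067 to 0.11. Members called with securinine (5) were 2 when all 53617 probe sets were tested and 1 to 5 in leave-one-out fits, in which 629 to 2462 genes were called (2823 in the fit of all arrays). Members called with 16F16 (2) were 5 with an intensity trend, 1 with a robust prior, 1 with median centring, 4 over brighter genes, 0 over all probe sets, 0 in the fit of 4 arrays, 0 with the replicate block and 0 in every leave-one-out fit. Genes called with 16F16 (223) were 1808 with the trend, 1056 over brighter genes and 0 in the other settings named as 0 (limma, 2099 to 7250 at an unadjusted p under 0.05). Members called between the compounds (5) were 10 with the trend, 8 after quantile normalization, 9 over brighter genes, 0 over all probe sets (9 at an unadjusted p under 0.05 in limma), 3 in the fit of 4 arrays, 3 with the replicate block and 0 to 3 in leave-one-out fits. Genes called between them (1416) were 3107, 2522 over brighter genes, 0 over all probe sets (9565 at an unadjusted p under 0.05 in limma), 324 in the fit of 4 arrays, 503 with the block and 0 to 324 in leave-one-out fits. The cause was not tested, apart from the fewer or more features and arrays that these settings hold by construction. Leaving out an array of the group that a comparison does not use gives the fit of 4 arrays. A lone array was assumed to vary like the other groups. Replicate numbers did not pair the samples: deviations of same-numbered arrays correlated at -0.050 to 0.038 across genes, so the replicate block marks a shared number only. Dim probe sets could not be told from background by a detection call; all 10 genes had means at or above the 69.7 percentile of named genes.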

Other observations

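Supply of nucleotides and ubiquitin control of CDT1 and PCNA were read from further lists. Of 14 nucleotide supply genes 9 were measured, and with securinine 1 rose and 1 fell. Of all genes 8.40% rose and 10.6% fell, so these counts are near the background. With securinine RRM2B, the ribonucleotide reductase subunit induced by p53, rose by 0.91 ± 0.11 (limma adjusted p = 0.0068), and SAMHD1, which degrades deoxynucleotides, fell by 0.84 ± 0.080 (limma adjusted p = 0.0042). The other 7 did not pass, among them TYMS, which makes thymidylate, at 0.083 ± 0.076 and the reductase subunit RRM1 at -0.18 ± 0.079. With 16F16 0 of 9 passed in limma (unadjusted p under 0.05 in 2, beside 3139 of all 14884 genes). RRM2B then lay at 0.44 ± 0.11 and RRM2, its S phase counterpart, at 0.31 ± 0.082. Between the compounds SAMHD1 was higher with 16F16 by 0.86 (limma adjusted p = 0.0098).

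Of 15 genes listed under ubiquitin control of CDT1 and PCNA, 12 were measured, and a place in the list does not show action on either protein. With securinine the ubiquitin ligase adaptor SKP1 rose by 0.70 ± 0.10 (limma adjusted p = 0.010), from mock values that lie near the median of all probe sets and were not shown above background. The ubiquitin-conjugating enzyme UBE2T fell with securinine by 0.39 ± 0.078 (limma adjusted p = 0.023). DTL, the receptor that directs CDT1 to destruction on PCNA-loaded DNA, lay at -0.22 ± 0.077 with securinine (limma adjusted p = 0.11) and at 0.19 ± 0.077 with 16F16 (limma adjusted p = 0.24), and was higher with 16F16 than with securinine by 0.41 (limma adjusted p = 0.034). With 16F16 0 of 12 passed in limma (unadjusted p under 0.05 in 2, beside 3139 of all 14884 genes). The medians of the list were -0.080 with securinine and -0.016 with 16F16, near those of all genes. The 1 higher and 1 lower of 12 with securinine were also near the background of 8.40% and 10.6% of all genes.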
